A study of Mus musculus with 4 samples.

Results

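The genes described here are the chemoattractants transcribed by EO771 cells: the chemokine genes Ccl2, Ccl7, Ccl5, Ccl20, Cxcl1, Cxcl10, Cxcl12, Cxcl16 and Cx3cl1, and Csf1, the gene of macrophage colony-stimulating factor. They were chosen by name, 10 of the 56350 genes in the deposited table, as chemoattractant genes with counts in these libraries. Levels and differences in the same libraries were known when they were picked, so the values of these 10 genes are a description and support nothing further. EO771 is a mammary carcinoma cell line of C57BL/6 mice, grown here as a culture without host tissue. The groups are 2 libraries labelled BML-210, from cells exposed for 48 h to BML-210 at 1.0 µM, and 2 libraries from the same line labelled untreated or WT, whose treatment protocol speaks of vehicle. The compound BML-210 inhibits histone deacetylases, the enzymes that take acetyl groups off histones. The design asks how RNA levels differ between cells with and without this inhibitor. No label says that the replicates were separate cultures, so p-values measure the spread between these samples, which may be technical. In the fit that spread is estimated mostly over all genes tested, and only in small part from the single gene.

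Chemokines are small secreted proteins that guide leukocytes along a gradient, and they are classed by the spacing of their first cysteines into the CC, CXC and CX3C families. Ccl2 and Ccl7 draw monocytes through the receptor Ccr2, Cxcl1 and Cxcl2 draw neutrophils through Cxcr2, and Csf1 keeps monocytes and macrophages alive through Csf1r. In mammary tumours these signals are known for bringing in the myeloid cells that settle around carcinoma cells. Several of the genes are targets of the transcription factor NF-kappaB, which binds a short, nearly symmetrical motif.

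Total counts were 13167893 and 13961743 in the BML-210 libraries, against 16534667 and 13855061 in those labelled untreated. Mitochondrial transcripts took 5.57% and 5.41% of counts in the libraries labelled BML-210 and 5.40% and 5.05% in those labelled untreated. The library codes hold the letter V for the libraries labelled BML-210 and D for those labelled untreated, so every direction here rests on the group labels. The letters could be read as vehicle and drug, which is the opposite of the labels, and on that reading each direction given here would be turned round. Of 12 epithelial and carcinoma markers, 4 had enough counts to test: Vim averaged 1659 and 1703 CPM (counts scaled to library size and given per 1e6) in the libraries labelled BML-210 and untreated, and Cdh1 had 11 to 16 counts in each library. Krt8 averaged 30.6 and 46.3 CPM and Grhl2 8.27 and 23.6 CPM in the libraries labelled BML-210 and untreated, and both were lower with BML-210 (edgeR adjusted p = 3.50e-09 and 4.98e-15), while Vim and Cdh1 did not pass. The exons of Krt8, Grhl2, Pdgfra and Col3a1 overlap those of other genes, so their counts are uncertain. Of the untested markers, Epcam had at most 3 counts and Krt18 at most 2 counts in any library. Vim, a mesenchymal gene, gave most of the level of this list. Of the epithelial genes proper, Krt8 and Grhl2 were thus detected, Cdh1 had few counts and Epcam and Krt18 were near 0. Leukocyte markers (18 genes, 6 tested) summed to 8.54 and 7.62 CPM in the libraries labelled BML-210 and to 13 and 11.1 CPM in those labelled untreated. The pan-leukocyte gene Ptprc had 6 to 16 counts in each library, C1qc was at 0 in all 4, and the macrophage marker Adgre1 had 1 and 4 counts in the libraries labelled BML-210 against 33 and 13 in those labelled untreated. Of the 6 tested leukocyte markers, Adgre1 was lower (edgeR adjusted p = 3.83e-05) and 5 did not pass. Neither library labelled BML-210 reached the expression cutoff of 0.719 CPM for Adgre1 (0.0755 and 0.285 CPM). Adgre1 was therefore tested only through the group in which it is high, and its call is not given as support. Fibroblast markers summed to 245 and 246 CPM in the libraries labelled BML-210 and to 251 and 259 CPM in those labelled untreated; of 5 tested, Acta2, Pdgfrb and Col3a1 were higher (log2 fold changes 1.07, 0.57 and 1.55), Pdgfra was lower (-0.68) and Col1a1 did not pass, while Lum and Thy1 were at 0 in all 4 libraries. Endothelial markers summed to 10.4 and 9.40 CPM in the libraries labelled BML-210 and to 9.23 and 8.50 CPM in those labelled untreated, and none of 3 tested passed in edgeR, also at an unadjusted p under 0.05. The part of these cell type markers in the results was not tested, and in bulk RNA fewer cells of a type and less RNA per cell cannot be told apart.

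With BML-210, Ccl2, Ccl7, Cxcl1 and Ccl20 were higher by 1.80-fold, 1.94-fold, 10.8-fold and 2.44-fold, and Csf1 and Cx3cl1 were higher by 1.19-fold and 1.18-fold. The remaining genes, Ccl5, Cxcl10, Cxcl12 and Cxcl16, did not pass. All 10 genes had enough counts to be tested. Of them, 6 passed an adjusted p of 0.05 upwards in edgeR's quasi-likelihood test across all genes and 0 passed downwards, beside 22.9% higher and 23.5% lower of all 14455 genes tested. At an unadjusted p under 0.05, and in DESeq2, the number lower was also 0. The groups did not overlap for 7 of the 10: both libraries labelled BML-210 lay above both labelled untreated for 6 genes, beside 35.2% of all genes tested, and below both for 1 gene, Cxcl12, beside 36.1%. The median log2 fold change was 0.37 for the 10 genes, against 0.00 for all genes tested. No inference is drawn from these counts, because the genes were picked with this comparison in view.

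**Figure D1:**
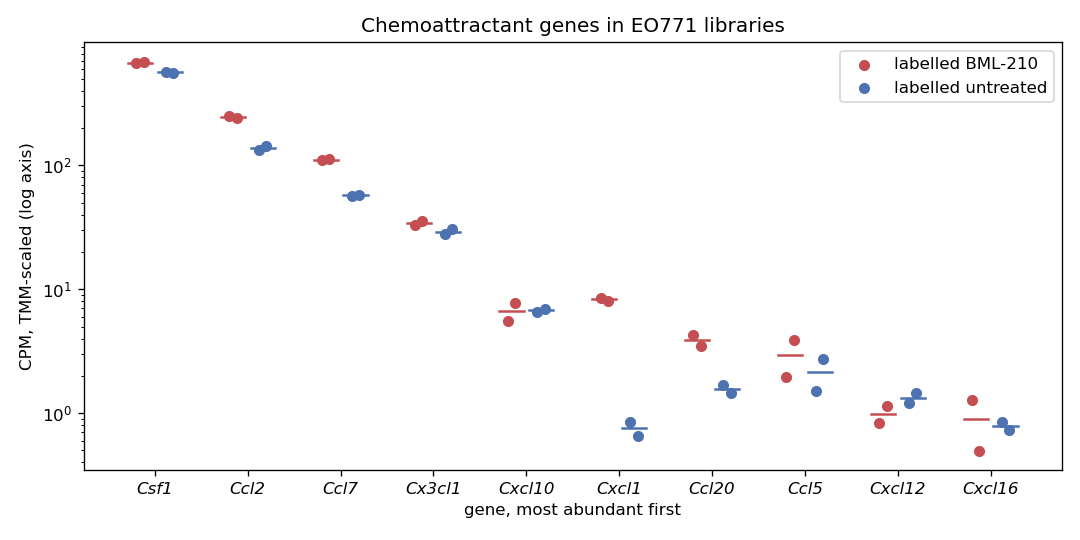
Normalised counts (CPM on TMM-scaled library size, log axis) of the 10 chemoattractant genes in each library; points are libraries and bars are group means (n = 2). Csf1 lies at 562 to 686 CPM and Cxcl16 at 0.50 to 1.28 CPM, and the groups stand farthest apart for Cxcl1.

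The promoters of 4 genes are shown, those of the 6 available that hold a match to the NF-kappaB consensus. They set genes that rose by different amounts beside one that did not pass. Cxcl1 and Ccl20 are the members with the largest fold changes, Csf1 rose slightly, and Cxcl10 did not pass. A RefSeq promoter table (GRCm38.p6) held entries for 6 of the 10 genes. Ccl2, Ccl7, Ccl5 and Cxcl16 had no entry, so whether their promoters hold the motif is not known here. Each line gives the 250 bases before the RefSeq start, 5′ to 3′ on the gene's strand, with capitals on matches to the NF-kappaB consensus, to the AP-1 motif TGANTCA and to the core of the interferon-stimulated response element, searched on both strands.
Cxcl1: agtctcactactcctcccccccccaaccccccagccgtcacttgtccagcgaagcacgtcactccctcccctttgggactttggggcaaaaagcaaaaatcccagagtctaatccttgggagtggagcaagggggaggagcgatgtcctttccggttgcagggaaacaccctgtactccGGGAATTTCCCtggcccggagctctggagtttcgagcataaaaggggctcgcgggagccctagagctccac
Ccl20: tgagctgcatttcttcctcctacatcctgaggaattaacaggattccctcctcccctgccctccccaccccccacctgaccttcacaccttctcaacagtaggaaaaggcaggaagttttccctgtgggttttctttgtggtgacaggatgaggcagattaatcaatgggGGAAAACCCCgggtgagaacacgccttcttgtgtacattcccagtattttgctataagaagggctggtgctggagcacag
Csf1: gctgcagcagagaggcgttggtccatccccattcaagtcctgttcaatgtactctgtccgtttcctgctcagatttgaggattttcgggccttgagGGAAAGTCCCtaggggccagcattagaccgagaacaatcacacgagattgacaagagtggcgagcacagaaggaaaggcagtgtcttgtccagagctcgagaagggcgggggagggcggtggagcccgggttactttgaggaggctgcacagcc
Cxcl10: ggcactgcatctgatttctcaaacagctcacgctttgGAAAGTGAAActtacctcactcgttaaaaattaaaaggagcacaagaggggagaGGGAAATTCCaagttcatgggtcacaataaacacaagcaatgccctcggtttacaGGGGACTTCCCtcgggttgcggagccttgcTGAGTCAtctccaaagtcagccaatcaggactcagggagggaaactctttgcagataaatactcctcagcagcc

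The windows are chr5:90890995-90891244 (plus strand) for Cxcl1, chr1:83116516-83116765 (plus) for Ccl20, chr3:107760470-107760719 (minus) for Csf1 and chr5:92348890-92349139 (minus) for Cxcl10. The Cxcl1 window holds 2 overlapping NF-kappaB matches, 1 per strand, within bases 71 to 61 before the start. Ccl20 has 1 match at bases 80 to 71 and Csf1 has 1 at bases 154 to 145, both on the opposite strand. Cxcl10 has 3 matches, of which 2 overlap, and it is the only one of these 4 windows with the AP-1 motif and the interferon element. The windows of Cxcl12 and Cx3cl1 hold none of the 3 motifs. Across 32851 promoters of the same length, 7.25% hold the NF-kappaB consensus, 6.75% the AP-1 motif and 2.98% the interferon core. A match is a run of letters and not a measured binding site. The NF-kappaB motif is present in windows of genes that rose and in that of Cxcl10, which did not pass. It is absent from the window of Cx3cl1, which was called higher. Whether the motif has a part in these changes was not tested.

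Csf1 was the most abundant of the 10 transcripts by count. The libraries labelled BML-210 held 665 and 686 CPM of Csf1 and those labelled untreated held 572 and 562 CPM. Both libraries labelled BML-210 lay above both labelled untreated, by a log2 fold change of 0.25 ± 0.03 (SE; 95% interval 0.20 to 0.31). The gene (ENSMUSG00000014599.10, chromosome 3, 107741048 to 107760469, mm10) took 61.5% and 62.2% of the summed counts of the 10 genes in the libraries labelled BML-210, against 71.3% and 69.6% in those labelled untreated. The sum itself was 1083 and 1103 CPM in the libraries labelled BML-210 and 802 and 806 CPM in those labelled untreated. Of the difference of 288 CPM between the group means of this sum, Ccl2 gave 110 CPM, Csf1 109 CPM and Ccl7 54.0 CPM. By count, Csf1 was thus close to Ccl2 in gain although its fold change was small. These counts are not corrected for exonic length, which is 5281 bases for Csf1 and 1138 for Ccl2. Per kb of exonic length, Ccl2 had 218 CPM with BML-210 and 121 without it, and Csf1 had 128 and 107.

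Ccl2, the main attractant of monocytes, had 252 and 244 CPM in the libraries labelled BML-210, against 133 and 143 CPM in those labelled untreated. Its log2 fold change was 0.85 ± 0.04 (SE), and the groups did not overlap. Ccl7, a second ligand of the same receptor, had 110 and 113 CPM in the libraries labelled BML-210 and 57.1 and 57.6 CPM in those labelled untreated. The log2 fold change of Ccl7 was 0.96 ± 0.05 (SE), again without overlap. The ratio of Ccl7 to Ccl2 counts, which no scaling between libraries can move, was 0.435 and 0.463 in the libraries labelled BML-210 and 0.430 and 0.404 in those labelled untreated. The ratio of Ccl2 to Csf1 counts was 0.379 and 0.355 in the libraries labelled BML-210, against 0.233 and 0.254 in those labelled untreated. Ccl2 and Ccl7 therefore moved by similar factors, and both by more than Csf1.

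Ccl2 and Ccl7 are neighbours (ENSMUSG00000035385.5 and ENSMUSG00000035373.2, chromosome 11, 82035571 to 82037453 and 82045712 to 82047525, both on the plus strand), with starts 10.1 kb apart. The chemokine genes next in line were nearly silent. Ccl11, an eosinophil attractant, had 1 and 2 counts in the libraries labelled BML-210 and 0 in both labelled untreated. Ccl12 had 0 and 1 counts in the libraries labelled BML-210 and 2 and 0 in those labelled untreated. Ccl8 had 1 and 4 counts in the libraries labelled BML-210 and 2 in each labelled untreated. High counts in this stretch were limited to Ccl2 and Ccl7 among the chemokine genes within 100 kb of Ccl2.

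**Figure D2:**
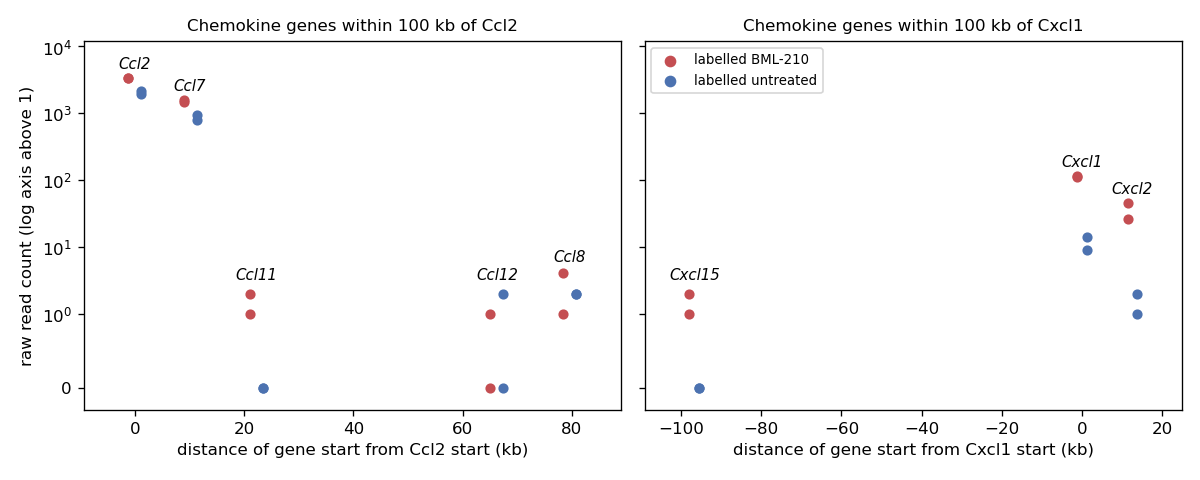
Raw read counts in each library (log axis above 1) of the chemokine genes within 100 kb of Ccl2 (left) and of Cxcl1 (right), by the distance between gene starts in kb. Ccl2 and Ccl7 stand above all their neighbours, and Cxcl2 stands beside Cxcl1 with the libraries labelled BML-210 above those labelled untreated for both.

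Cxcl1, a neutrophil attractant, showed the largest fold change of the 10 genes. It had 112 and 114 counts (8.46 and 8.12 CPM) in the libraries labelled BML-210, against 14 and 9 counts (0.85 and 0.65 CPM) in those labelled untreated. The log2 fold change was 3.43 ± 0.27 (SE; 95% interval 2.89 to 3.98). The summed counts, 226 against 23, give a ratio of 10.9 with an exact Poisson interval of 7.08 to 17.5, which covers counting error only. Of the untreated libraries, 1 of 2 reached the expression cutoff of 0.719 CPM, so the gene's place among tested genes depended on the group in which it is high. The call of Cxcl1 is therefore not given as support.

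Cxcl2, which like Cxcl1 acts on Cxcr2, lies 12.6 kb from it on chromosome 5 and is not among the 10 genes. It had 26 and 46 counts in the libraries labelled BML-210 and 2 and 1 counts in those labelled untreated. The summed counts, 72 against 3, give a ratio of 26.6 with an exact Poisson interval of 8.74 to 132. Neither untreated library reached the expression cutoff of 0.719 CPM, so Cxcl2 was tested only through the group in which it is high, and its call is not given as support. As a description only, both neutrophil attractants had more counts in each library labelled BML-210 than in either labelled untreated. Cxcl15, the other chemokine gene within 100 kb of Cxcl1, had 1 and 2 counts in the libraries labelled BML-210 and 0 in both labelled untreated.

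Ccl20, which draws lymphocytes and dendritic cells through Ccr6, had 57 and 49 counts (4.31 and 3.49 CPM) in the libraries labelled BML-210, against 28 and 20 counts (1.70 and 1.45 CPM) in those labelled untreated. Its log2 fold change was 1.29 ± 0.28 (SE), and the groups did not overlap. The gene (ENSMUSG00000026166.14) lies on chromosome 1, from 83116766 to 83119167. With at most 57 counts in a library, its 95% interval runs from 0.72 to 1.85, so the size of the change is known only coarsely.

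Cx3cl1 and Cxcl16 are unusual in being made as membrane-bound chemokines that proteases can release. Cx3cl1 had 32.9 and 35.5 CPM in the libraries labelled BML-210 and 27.8 and 30.7 CPM in those labelled untreated, a log2 fold change of 0.23 ± 0.08 (SE). The groups were separated by a small margin, and the call rested on single libraries: edgeR's adjusted p was 0.0165 with all 4, 0.185 without BML-210 replicate 2, 0.232 without untreated replicate 1 and 0.164 in DESeq2 (0.00755 to 0.232 over the alternatives). Cxcl16 had 17 and 7 counts in the libraries labelled BML-210, against 14 and 10 in those labelled untreated. The groups overlapped, and the 95% interval of the log2 fold change (-0.82 to 1.12) leaves room for a change of 2-fold upwards. Exons of Cxcl16 overlap those of Zmynd15 on the other strand.

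Cxcl10 and Ccl5, both attractants of T cells, did not pass. Cxcl10 had 5.51 and 7.76 CPM in the libraries labelled BML-210 and 6.56 and 6.98 CPM in those labelled untreated, a log2 fold change of -0.02 (95% interval -0.38 to 0.34). The libraries labelled untreated fell between those labelled BML-210. Exons of Cxcl10 overlap those of Art3 on the other strand. Ccl5 had 26 and 55 counts (1.96 and 3.92 CPM) in the libraries labelled BML-210 and 25 and 38 counts (1.52 and 2.76 CPM) in those labelled untreated. The log2 fold change of Ccl5 was 0.50 (95% interval -0.12 to 1.11), and the higher untreated library lay above the lower one labelled BML-210. Which library is kept decides this value: it was 0.90 without BML-210 replicate 1 and 0.96 without untreated replicate 2 (edgeR adjusted p = 0.0177 and 0.0303), -0.10 without BML-210 replicate 2 and 0.10 without untreated replicate 1, with adjusted p from 0.0177 to 0.883 over the alternatives.

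Cxcl12, the ligand of Cxcr4 and a typical stromal chemokine, was near the limit of these libraries. It had 11 and 16 counts in the libraries labelled BML-210 and 20 in each labelled untreated. Its log2 fold change was -0.42 (95% interval -1.24 to 0.40), so a fall of 2-fold and a small rise both lie inside the interval at this depth. A count of 3, the limit that a count of 0 allows, equals 0.182 to 0.227 CPM in single libraries.

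**Figure D3:**
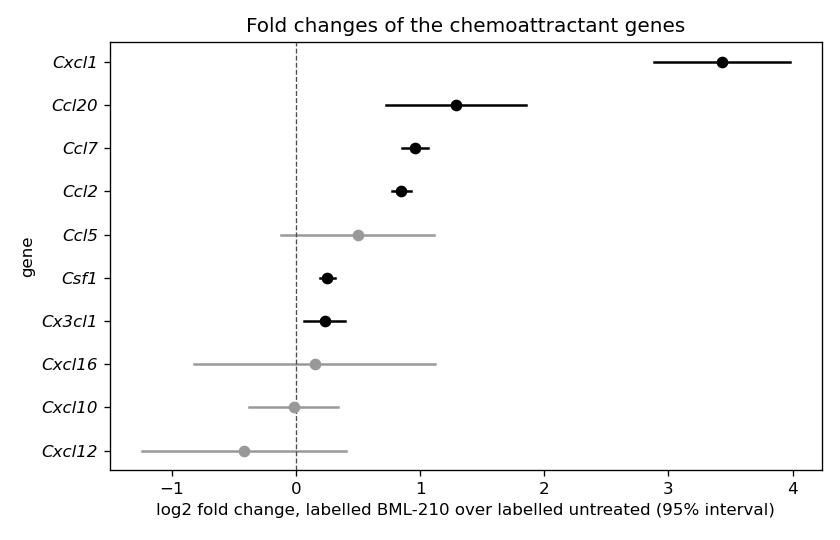
Log2 fold change of each chemoattractant gene, libraries labelled BML-210 over libraries labelled untreated, with its 95% interval from edgeR's quasi-likelihood fit; black marks genes that passed an adjusted p of 0.05 and grey those that did not. Cxcl1 lies at 3.43, and the intervals of Ccl5, Cxcl10, Cxcl12 and Cxcl16 cross 0.

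Levels between genes were compared as CPM per kb of exonic length. In the libraries labelled BML-210 the order was Ccl2 (218 ± 5.49, SD, n = 2), Ccl7 (139 ± 2.75), Csf1 (128 ± 2.73), Cx3cl1 (8.71 ± 0.468) and Cxcl1 (4.42 ± 0.129). Ccl5 (3.06), Cxcl10 (2.95) and Ccl20 (2.74) followed with overlapping libraries, and Cxcl16 (0.295) and Cxcl12 (0.120) came last. In the libraries labelled untreated the order was Ccl2 (121 ± 6.01, SD, n = 2), Csf1 (107 ± 1.39), Ccl7 (71.6 ± 0.366), Cx3cl1 (7.44 ± 0.538), Cxcl10 (3.01), Ccl5 (2.23), Ccl20 (1.11), Cxcl1 (0.401), Cxcl16 (0.261) and Cxcl12 (0.163). No pair of neighbours in that order had overlapping libraries. Between the groups, Ccl7 and Csf1 change places, and Cxcl1 stands at rank 5 with BML-210 and at rank 8 without it. Ccl2, Ccl7 and Csf1 together made up 94.45% to 94.96% of the counts of the 10 genes in every library.

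Among tested genes with a mean of at least 5 CPM, the patterns nearest to that of Ccl2 were those of Mcm4, a replication helicase gene, Herpud1, a gene of endoplasmic reticulum stress, and Spp1, the gene of the secreted protein osteopontin. Their distances from Ccl2, taken over 4 libraries on centred log2(CPM + 1) values, were 0.0294, 0.0387 and 0.0480 among 10135 candidates. The log2 fold changes of Mcm4, Herpud1 and Spp1 were 0.89, 0.86 and 0.90, against 0.85 for Ccl2. With 2 libraries per group, a small distance mostly reflects a similar fold change. A link between these genes and Ccl2 was not tested. Spp1 had 28.3 and 28.2 CPM in the libraries labelled BML-210, against 14.3 and 15.9 CPM in those labelled untreated.

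Few other chemokine genes were expressed. Of 29 further chemokine ligand genes, 5 were tested, 1 (Cxcl2) was higher and 0 were lower in edgeR (2 higher and 0 lower at an unadjusted p under 0.05), beside 22.9% higher and 23.5% lower of all genes tested, and 7 had no count in any library. As said above, Cxcl2 was tested only through the group in which it is high, so this count is not given as support. Without BML-210 replicate 1, Ccl3 passed as lower (log2 fold change -0.72, edgeR adjusted p = 0.0285), whereas with all libraries it was -0.26 (adjusted p = 0.342, with a range of 0.0285 to 0.793). Ccl3, an inflammatory attractant, had 75 and 45 counts in the libraries labelled BML-210 and 91 and 69 counts in those labelled untreated. Ccl25 was the most abundant of the 29, at 44.4 ± 0.505 CPM in the libraries labelled BML-210 and 40.0 ± 0.532 CPM in those labelled untreated (SD, n = 2; edgeR adjusted p = 0.067, and 0.0416 to 0.305 over the alternatives). Its exons overlap those of Elavl1 on the other strand, and how reads were assigned to strands is not given.

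Colony-stimulating and related growth factors of the blood lineages went both ways: 3 of 5 were higher, 1 lower and 1 did not pass (median log2 fold change 0.43), beside 22.9% higher and 23.5% lower of all genes tested. Csf2, the granulocyte-macrophage factor, had 41 and 43 counts in the libraries labelled BML-210 and 15 and 7 in those labelled untreated. The change of Csf2 was 2.07 ± 0.36 on the log2 scale (SE; adjusted p = 2.35e-06 in edgeR). The libraries labelled untreated held 0.911 and 0.509 CPM of Csf2, on either side of the expression cutoff of 0.719 CPM. Its place among tested genes thus depended on the group in which it is high, and its call is not given as support. Csf3, the granulocyte factor, had 65 and 60 counts in the libraries labelled BML-210 and 50 and 35 in those labelled untreated. The call of Csf3 (edgeR adjusted p = 0.0112) ended without BML-210 replicate 1 (0.101), without the second untreated library (0.0809) and in DESeq2 (0.122), in a range of 0.00588 to 0.122. Kitl, the stem cell factor, had 59.0 and 59.5 CPM in the libraries labelled BML-210 and 44.0 and 43.8 CPM in those labelled untreated. Il34, the second ligand of Csf1r, went against Csf1: it had 14.3 and 13.6 CPM in the libraries labelled BML-210, against 19.9 and 23.9 CPM in those labelled untreated (log2 fold change -0.65 ± 0.11, SE; edgeR adjusted p = 2.44e-06). On the scale of CPM per kb, the level of Csf1 was 128 with BML-210 and 107 without it, and that of Il34 was 7.12 with BML-210 and 11.2 without it. Exons of Csf2 and Il34 overlap those of other genes on the other strand.

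Transcripts of the receptors that these ligands act on were at or near 0, with Ackr3 as the exception. Of 16 receptor and scavenger genes, 2 were tested and 0 passed in either direction in edgeR, also at an unadjusted p under 0.05, and Ccr1, Ccr2, Ccr3, Ccr6, Cxcr4 and Cxcr6 had no count in any library. In the same family, 0 genes passed in any of the other tools or settings tried. The scavenger receptor Ackr3, which takes up Cxcl12, had 46.2 ± 2.38 CPM in the libraries labelled BML-210 and 48.1 ± 2.75 CPM in those labelled untreated (SD, n = 2; edgeR adjusted p = 0.481). Cx3cr1, the receptor of Cx3cl1, had 17 and 6 counts in the libraries labelled BML-210 and 23 and 13 in those labelled untreated. Csf1r had 7 and 3 counts in the libraries labelled BML-210 and 16 and 6 in those labelled untreated, too few to test.

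Proteases that release or cut chemokines, and their partners, were lower in 7 of 14 tested cases and higher in 4 (median log2 fold change -0.08), beside 23.5% lower and 22.9% higher of all genes tested. Adam10 and Adam17, the main proteases that release membrane-bound Cx3cl1, Cxcl16 and Csf1, had log2 fold changes of -0.25 ± 0.04 and -0.13 ± 0.04 (SE; edgeR adjusted p = 4.02e-07 and 0.00308). The call of Adam17 ended without untreated replicate 1 (0.0805) and in DESeq2 (0.07), in a range of 0.000239 to 0.0805. Adam8 fell to 1.13 and 1.07 CPM in the libraries labelled BML-210, against 12.0 and 11.3 CPM in those labelled untreated (log2 fold change -3.40), and Adam9 (-0.44) and Bsg (-0.50) fell too. The gelatinase gene Mmp9 had 117 and 114 CPM in the libraries labelled BML-210, against 48.2 and 43.3 CPM in those labelled untreated (log2 fold change 1.33), and the inhibitor gene Timp2 rose by 0.24. The number higher was 2 without BML-210 replicate 1, without untreated replicate 2 and in DESeq2.

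**Figure D4:**
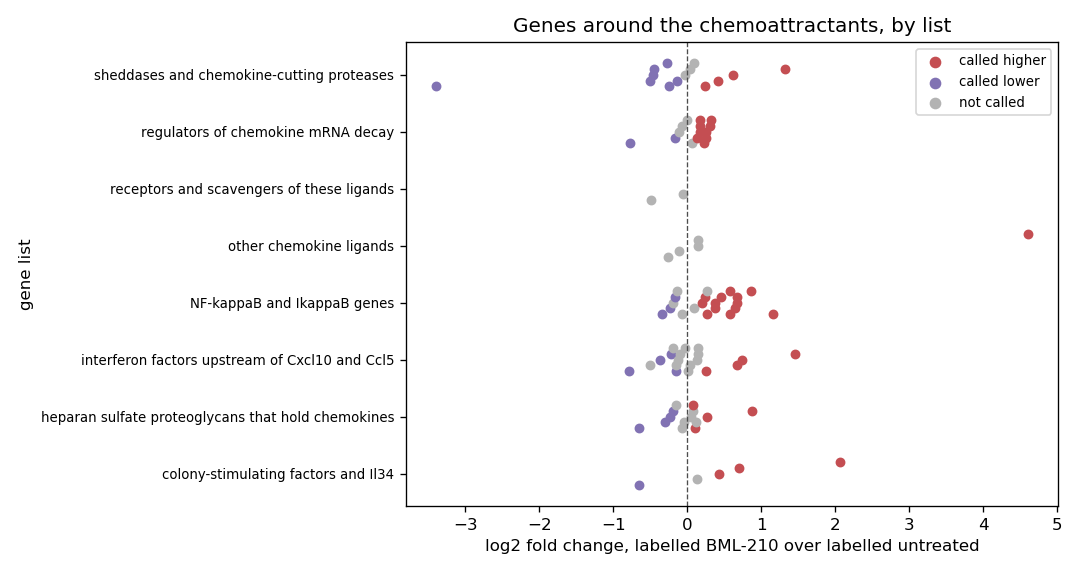
Log2 fold change of each tested gene in the 8 lists around the chemoattractants, libraries labelled BML-210 over libraries labelled untreated; colours mark genes called higher, called lower or not called by edgeR at an adjusted p of 0.05, and the small vertical offsets only separate points. In the NF-kappaB list 13 of 21 genes lie on the higher side and passed, and the single receptor points did not pass.

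The list of NF-kappaB and IkappaB genes also held kinase and other regulator genes of the pathway, such as Ikbkb, Ikbkg and Tnfaip3. Its genes were higher in 13 of 21 cases, lower in 3 and not called in 5, beside 22.9% higher and 23.5% lower of all genes tested. The median log2 fold change was 0.27, against 0.00 over all genes tested. The subunit gene Nfkb1 had 143 and 136 CPM in the libraries labelled BML-210, against 78.9 and 74.9 CPM in those labelled untreated. Nfkbia (0.58), Nfkbiz (0.65) and Tnfaip3 (0.67) rose on the log2 scale as well. The kinase complex genes Ikbkg (-0.34) and Ikbkb (-0.24) fell (edgeR adjusted p = 1.02e-07 and 0.000124). Of 19 interferon pathway genes, 4 were higher, 4 lower and 11 not called (median log2 fold change -0.02), which is near the 22.9% higher and 23.5% lower of all genes tested. Irf1 (0.68) and Irf9 (1.46), factors that bind interferon-responsive promoters, rose, and Irf8 (-0.79) and the kinase gene Tyk2 (-0.37) fell. Exons of Irf1, Irf9, Tyk2 and Ikbkg overlap those of other genes, for Irf9 on the same strand, so their counts are uncertain. Cxcl10, whose promoter above carries the interferon core, did not pass in the same libraries. A link between these factors and Cxcl10 was not tested.

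Among 15 regulators of chemokine mRNA decay, 9 were higher, 2 lower and 4 not called (median log2 fold change 0.17), beside 22.9% higher and 23.5% lower of all genes tested. The list mixes regulators of different kinds and decay itself was not measured, so these counts give it no direction. The deadenylase scaffold gene Cnot1 (0.25), the AU-rich element binder gene Hnrnpd (0.26) and Zc3h12c (0.33) rose by small amounts. Dusp1, a phosphatase that ends p38 signalling, fell to 60.8 and 67.9 CPM in the libraries labelled BML-210, against 110 and 109 CPM in those labelled untreated (log2 fold change -0.77, edgeR adjusted p = 5.67e-19), and the p38 target kinase gene Mapkapk2 fell by 0.16. Zfp36, the gene of the decay factor tristetraprolin, did not pass (-0.11). Of 14 tested genes of heparan sulfate proteoglycans, on which chemokines are held, 4 were higher, 4 lower and 6 not called (median log2 fold change 0.01), near those same shares. The sulfotransferase gene Ndst1 (-0.29), the proteoglycan gene Gpc1 (-0.19) and the polymerase gene Ext2 (-0.23) fell, and the syndecan gene Sdc2 rose by 0.27. The number higher was 1 without BML-210 replicate 2.

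**Figure D5:**
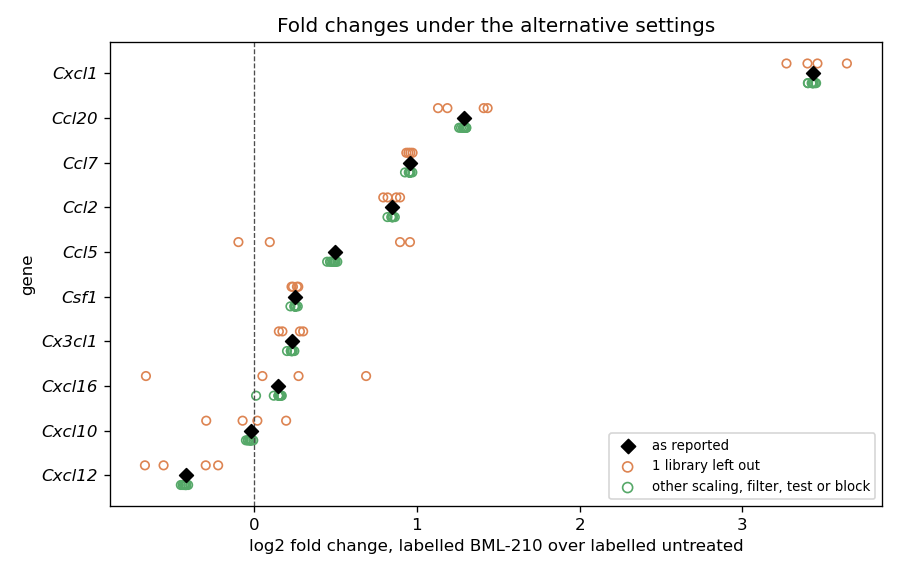
Log2 fold change of each chemoattractant gene, libraries labelled BML-210 over libraries labelled untreated, under each alternative; diamonds are the values as reported, orange circles leave out 1 library and green circles change the scaling, filter, test or block. Ccl2, Ccl7, Ccl20, Cxcl1 and Csf1 stay to the right of 0 throughout, while Ccl5 runs from -0.10 to 0.96.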

How the data were processed

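The authors deposited 1 table of raw, unnormalised read counts per gene, which per the file headers also gives each gene's name, exons, strand and length. The submitters' processing notes name STAR 2.5, featureCounts, Subread 1.5.1, edgeR 3.20.8 and bcl2fastq, with mm10 as the build. How strand, multi-mapped reads and overlapping genes were handled is not given in the sources used. Exons of 2 of the 10 genes, and of 17 of the 40 other genes named by the list rule or after their values were seen (cell type markers not counted), overlap those of another gene, so their counts are uncertain. Not every such overlap is named where its gene is described. Library names in the labels matched the 4 columns to samples. All 10 genes had the same start and end in GENCODE M21.

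The analysis used edgeR 4.0.16 in R 4.3.3 (filterByExpr, which kept 14455 genes, TMM, glmQLFit with robust=TRUE, glmQLFTest), with group as the only term, 2 residual degrees of freedom and Benjamini-Hochberg adjustment over all genes tested. Standard errors are the log2 fold change over the square root of F, and 95% intervals use the moderated degrees of freedom. The fit borrowed spread over all genes, with a median of 54.9 prior degrees of freedom beside the 2 residual ones. Its common coefficient of variation between replicates was 2.49%. CPM were computed on TMM-scaled library sizes. Counting intervals and floors cover counting error only. Replicates were farther apart than sampling noise (chi-square per degree of freedom 1.76 for BML-210 and 2.70 for untreated), so each library counts as 1 sample. The steps were tested on simulated data.

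The genes and lists were chosen with earlier results of these data known. In each list the text names up to 4 called genes with the smallest adjusted p and up to 2 that went against the majority, or the 2 most abundant where none was called. Ccl25, Ccl3, Adam10, Adam17, Zfp36, Csf1r and the cell type marker genes were named after their values were seen. Alternatives were other scaling factors (RLE, upper-quartile, none), other filters (none, mean CPM of at least 1), a replicate block, leaving out each library, the likelihood ratio test, no robust estimation, limma-voom (limma 3.58.1) and DESeq2 1.42.0.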

Additional observations from a re-analysis of the deposited data

How the results depend on the processing

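Over 14 alternatives Ccl2 (0.79 to 0.90), Ccl7 (0.93 to 0.97), Ccl20 (1.13 to 1.44), Cxcl1 (3.27 to 3.64) and Csf1 (0.22 to 0.27) kept their direction, as log2 fold changes. These 5 genes passed in each alternative that kept all libraries. As said above, the place of Cxcl1 among tested genes depended on the group in which it is high, so its call is not given as support. Cxcl10, Cxcl12 and Cxcl16 did not pass in any that could be run; Cxcl16 fell under the filter of a mean of at least 1 CPM. Cx3cl1 did not pass in DESeq2 (0.23), and with 1 library left out its value ran from 0.15 to 0.30. Ccl5 ran from -0.10 to 0.96 with 1 library left out and passed without BML-210 replicate 1 or untreated replicate 2; the cause was not tested. DESeq2 called 2205 genes higher and 2130 lower, against 3312 and 3402 in edgeR. It called 2 chemokine-cutting proteases and partners higher, against 4, and with 1 library left out that number was 2 to 3. Further chemokine ligands called higher were 2 with library size only, and those called lower were 0 to 1 with 1 library left out. Heparan sulfate genes called higher were 1 to 5 with 1 library left out. The titles give both groups the same replicate numbers, but deviations of same-numbered libraries were hardly correlated (0.0161), so the numbers are not taken as pairs; with the replicate block 3385 genes were higher and 3462 lower, and Ccl5 had 0.45 and Cx3cl1 0.23. Where 1 library is left out, the lone library of its group is assumed to vary like the other group. Ccl5, Ccl20, Cxcl12 and Cxcl16 had at most 57 counts in a library, which limits the precision of their values; Ccl5 replicates also differed by more than counting error (exact binomial p = 0.0036 for BML-210 and 0.0223 for untreated, not adjusted over the 20 such pairs).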
